A study of Mus musculus with 8 samples.

Results

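Genes of fatty acid oxidation, ketogenesis and the response to peroxisome proliferator-activated receptor α (PPARα) were followed in the livers of wild-type (WT) mice and of mice deficient in the histone deacetylase SIRT7 (SIRT7 KO). The list held 39 genes, chosen by function. A probe set is the group of short probes on the array that reads a transcript. Of the 39 genes, 36 had at least 1 probe set annotated to that gene alone, as had 12393 genes in all, and the 36 were read by 55 of the 22626 probe sets tested. Cyp4a10 had a probe set shared with Cyp4a31, and Acsl1 and Acsl3 were not analysed here. Where a gene had several probe sets, the brightest over all 8 arrays stood for the gene.

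Total RNA from 4 WT and 4 SIRT7 KO livers was hybridized to Affymetrix mouse 430A arrays, with 1 array for each liver. The study uses SIRT7 KO mice as a model of fatty liver disease that arises without a special diet. The labels name no agent and no further allele for either genotype, and they leave out the age, litter and feeding state of each mouse. Whether the livers were processed together is not stated, and p-values therefore speak of the spread among these 8 samples, which may be partly technical. Expression is given on the log2 scale, so that a difference of 1 is a doubling of signal, and levels of different probe sets cannot be ranked against each other.

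Fatty acids are activated to acyl-CoA by synthetases, carried into mitochondria by the carnitine shuttle and shortened there in a spiral of dehydrogenation, hydration, dehydrogenation and thiolysis. Electrons leave the spiral through the electron transfer flavoprotein (ETF). Peroxisomes shorten very long and branched chains by a parallel route. In the liver much of the acetyl-CoA becomes ketone bodies. PPARα is a nuclear receptor that senses fatty acids, pairs with the retinoid X receptor (RXR) and raises the transcription of many of these genes during fasting.

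Sirt7 was first compared as a check of the labels. It lay between 8.57 and 8.98 on the WT arrays and between 4.40 and 4.90 on the SIRT7 KO arrays (limma adjusted p = 9.2e-07). The median over all probe sets was between 6.30 and 6.36 on each array. The mean of 8 hepatocyte markers, among them albumin, was between 14.47 and 14.55 in WT and between 14.40 and 14.46 in SIRT7 KO livers, and 0 of the 8 passed the test (0 at an unadjusted p under 0.05). The difference was positive for 1 of the 8 (49.3% of all genes), with a median of -0.044. The first principal component of all probe sets, with 28.0% of the variance, separated the genotypes. It lay between -34.5 and -2.10 on the WT arrays and between 4.89 and 23.9 on the SIRT7 KO arrays. The second, with 22.6%, placed SIRT7 KO array 3 (-24.4), SIRT7 KO array 4 (-19.4) and WT array 4 (-10.7) on 1 side. The other 5 arrays (1.52 to 19.0) lay on the other side, so that the second component crossed the genotypes.

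To ask whether the oxidation program differed between the genotypes, each gene was tested with limma over all probe sets, and a gene was called where its adjusted p was below 0.15, the cutoff of the study's methods. Of the 36 genes, 3 were higher in SIRT7 KO livers, namely Acsl4, Vnn1 and Pex11a, and 0 were lower. In whole liver, a change in the number of cells of a type and a change in RNA per cell cannot be told apart. The 3 genes are 8.33% of the list, against 2.17% of all genes that were called higher and 2.48% that were called lower. At an unadjusted p under 0.05, 5 of the 36 were higher and 0 lower, against 6.91% and 8.72% of all genes. Leaving out any single array left 1 or 2 genes higher, and Acsl4 was among them each time. Acsl4 was also the only gene called at an adjusted p under 0.05, or with an intensity trend and robust variance. The difference was positive for 31 of 36 genes, against 49.3% of all genes. The median difference was 0.15 over the list and -0.0031 over all genes. The 4 SIRT7 KO arrays lay above all 4 WT arrays for 3 of the 36, which were Acsl4, Pex11a and Pdk4, against 4.10% of all genes. The reverse order occurred for 0 of the 36, against 5.70% of all genes.

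**Figure D1:**
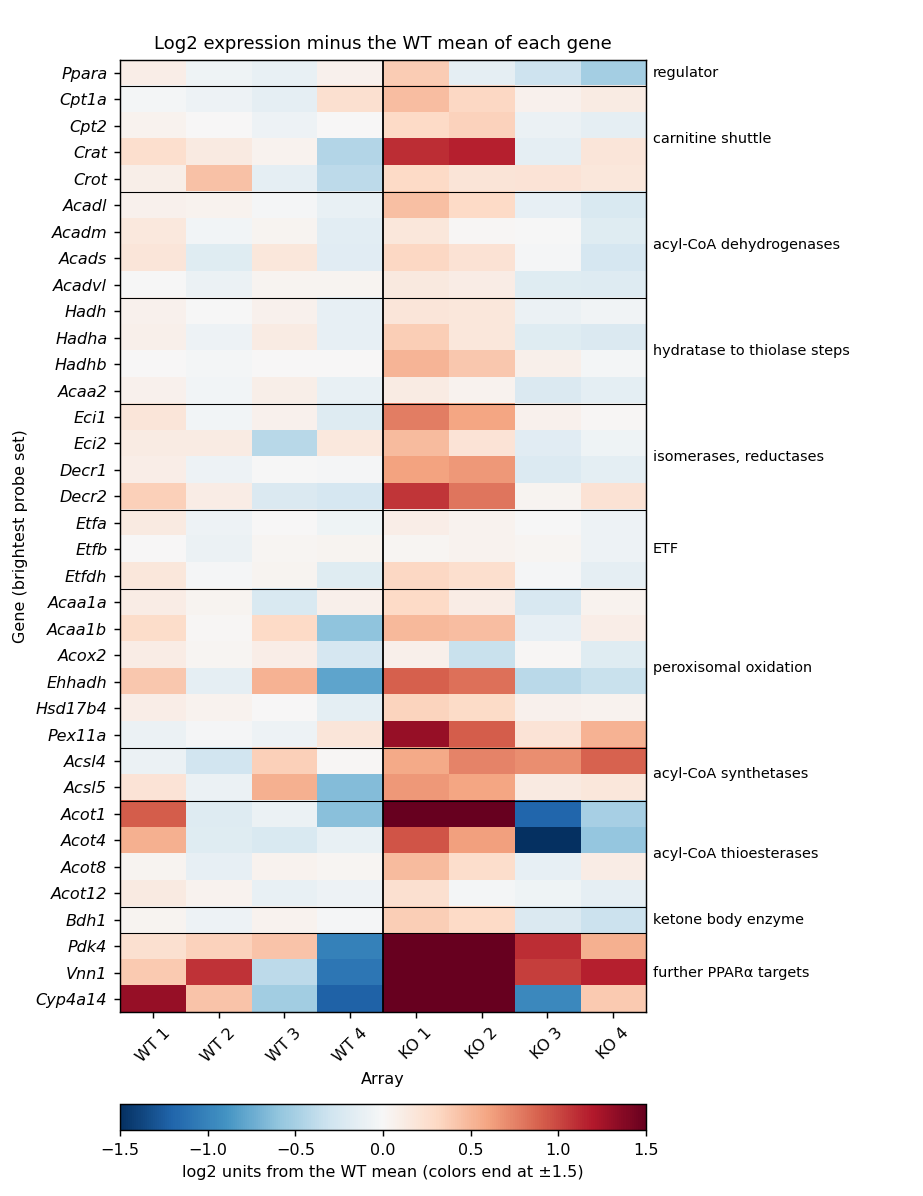
Log2 expression of the 36 genes (vertical axis, brightest probe set, grouped by role) on the 4 WT and 4 SIRT7 KO (KO) arrays (horizontal axis), each minus the WT mean of the gene. Red is above and blue below the WT mean, and colors end at 1.5 log2 units. KO arrays 1 and 2 are red in most rows, while KO arrays 3 and 4 hold both colors.

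The positive differences did not come evenly from the 4 SIRT7 KO livers. SIRT7 KO array 1 lay above all 4 WT arrays for 32 of 36 genes (88.9%, against 21.0% of all genes). SIRT7 KO array 2 did so for 28 of 36 (77.8%, against 21.2%). In contrast, SIRT7 KO array 3 did so for 4 of 36 (11.1%, against 24.0%) and SIRT7 KO array 4 for 5 of 36 (13.9%, against 18.2%). Arrays 3 and 4 lay below all WT arrays for 11 and 13 of the 36 genes (23.7% and 25.9% of all genes), and arrays 1 and 2 for 0 and 2 (24.2% and 22.6% of all genes). SIRT7 KO array 1 was the highest of the 8 arrays for 28 of 36 genes, against 12.3% of all genes. Relative to the WT mean, the median of the 36 genes was 0.46 on SIRT7 KO array 1, 0.29 on array 2, -0.076 on array 3 and -0.068 on array 4. On the WT arrays it ran from -0.12 on array 4 to 0.11 on array 1. Over all genes this median lay between -0.015 and 0.012 on every array.

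Most of these genes were more uneven among SIRT7 KO than among WT livers. The SD was larger in SIRT7 KO livers for 29 of 36 genes, against 45.9% of all genes, and its median was 0.15 in WT and 0.26 in SIRT7 KO livers. Without SIRT7 KO array 1 the median difference of the list fell from 0.15 to 0.037, without array 2 to 0.067 and without WT array 4 to 0.084. It was 0.22 without SIRT7 KO array 3. These per-array counts were made after the values had been seen, and they describe 4 livers and not a subgroup of the genotype. In technical measures SIRT7 KO array 1 also stood apart, whereas array 2 lay with the remaining arrays. The difference between the 3' and 5' probe sets of GAPDH was -0.016 on SIRT7 KO array 1. It was between 0.14 and 0.16 on the other SIRT7 KO arrays and between 0.16 and 0.29 on the WT arrays. The mean of 45 spike-in control probe sets was 8.39 on SIRT7 KO array 1 and between 8.51 and 8.76 on the others. The 3' to 5' difference of β-actin was 1.29 on SIRT7 KO array 1, 1.47 on array 3 and between 1.58 and 1.64 on the others. The part of these measures in the results was not tested.

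**Figure D2:**
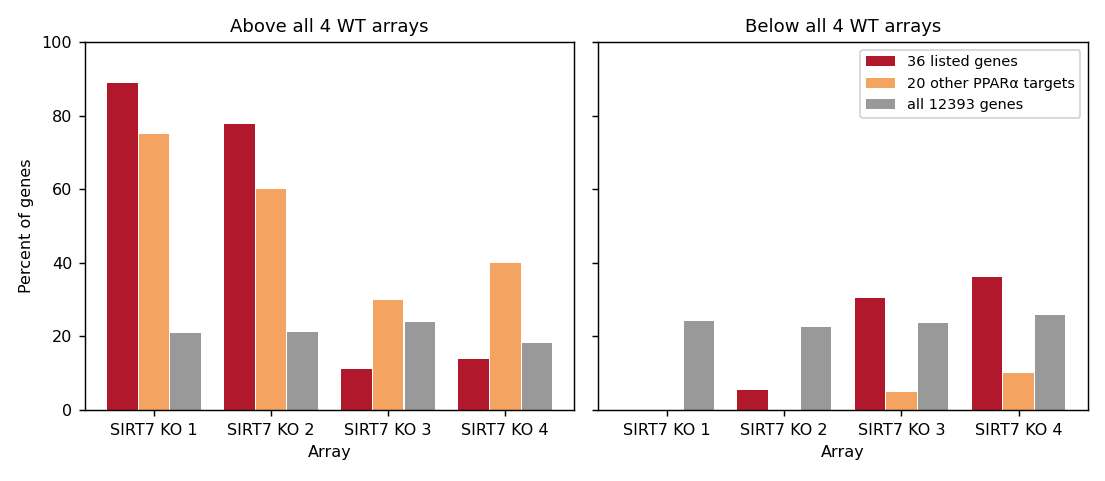
Percent of genes (vertical axis) for which a SIRT7 KO array (horizontal axis) lay above all 4 WT arrays (left) or below all 4 (right), for the 36 listed genes, 20 other PPARα targets and all 12393 genes. SIRT7 KO arrays 1 and 2 lay above the WT arrays for 88.9% and 77.8% of the listed genes, and arrays 3 and 4 for 11.1% and 13.9%.

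Ppara, the receptor gene itself, was not called. It read 10.83, 10.66, 10.62 and 10.80 on WT arrays 1 to 4 and 11.10, 10.59, 10.42 and 10.22 on SIRT7 KO arrays 1 to 4. The groups overlapped, with the highest and the lowest values both among the SIRT7 KO livers. The difference was -0.14 ± 0.17 (SE, n = 4 per group, adjusted p = 0.753), with a 95% interval from -0.52 to 0.23.

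The clearest change of the list was in Acsl4, the acyl-CoA synthetase that prefers arachidonic acid and other polyunsaturated fatty acids. It read 9.28, 9.09, 9.73 and 9.39 on WT arrays 1 to 4 and 9.94, 10.11, 10.06 and 10.25 on SIRT7 KO arrays 1 to 4. All 4 SIRT7 KO livers lay above all 4 WT livers, and here SIRT7 KO arrays 3 and 4 were as high as the others. Acsl4 rose by 0.72 ± 0.13 (SE, n = 4 per group), or 1.65-fold (adjusted p = 0.0495). Both of its other probe sets rose as well, by 0.58 ± 0.098 (SE, adjusted p = 0.0453) and 0.67 ± 0.17 (SE, adjusted p = 0.12). Acsl4 stayed past the threshold whichever of the 8 arrays was left out, with a highest adjusted p of 0.148 (without SIRT7 KO array 4). Acsl5, another long-chain synthetase, differed by 0.39 ± 0.23 (SE) and was not called (adjusted p = 0.502).

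Pex11a, which encodes a membrane protein that takes part in peroxisome division, read 10.08, 10.14, 10.08 and 10.34 on WT arrays 1 to 4 and 11.47, 11.07, 10.37 and 10.69 on SIRT7 KO arrays 1 to 4. The groups did not overlap, but SIRT7 KO array 3 lay only just above WT array 4. Pex11a rose by 0.73 ± 0.20 (SE, n = 4 per group), or 1.66-fold (adjusted p = 0.139), and its other probe set differed by 0.68 ± 0.20 (SE, adjusted p = 0.156). Of 8 repeats that each dropped 1 array, the call held in 1, without SIRT7 KO array 3 (adjusted p = 0.0764), and the adjusted p reached 0.284 without WT array 1. The 250 bases before its transcript start (RefSeq, GRCm38.p6, chr7:79743132-79743381, minus strand) are shown because Pex11a was called and is a PPARα target. PPARα and RXR bind paired copies of the half-site AGGTCA with 1 base between them, and this window holds 0 copies of the half-site on either strand, so that no base is in capitals.
Pex11a: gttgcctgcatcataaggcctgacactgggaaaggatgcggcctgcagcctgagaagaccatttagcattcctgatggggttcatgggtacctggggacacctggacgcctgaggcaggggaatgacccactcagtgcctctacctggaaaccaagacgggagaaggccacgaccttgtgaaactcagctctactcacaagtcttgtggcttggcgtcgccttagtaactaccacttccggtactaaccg

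Vnn1, a pantetheinase on the hepatocyte surface and a PPARα target, read 10.62, 11.31, 9.84 and 9.15 on WT arrays 1 to 4 and 12.49, 12.29, 11.27 and 11.40 on SIRT7 KO arrays 1 to 4. WT array 2 overlapped the lowest SIRT7 KO array. Vnn1 rose by 1.63 ± 0.45 (SE, n = 4 per group), or 3.09-fold (adjusted p = 0.139). Of 8 repeats that each dropped 1 array, the call held in 1, without WT array 2 (adjusted p = 0.102), and the adjusted p reached 0.275 without SIRT7 KO array 2.

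Pdk4, the kinase that switches off pyruvate dehydrogenase when fatty acids are burned, came next. It read 6.44, 6.54, 6.62 and 5.19 on WT arrays 1 to 4 and 8.78, 8.29, 7.31 and 6.73 on SIRT7 KO arrays 1 to 4. The groups did not overlap, and SIRT7 KO array 4 lay just above WT arrays 1 to 3. The difference of 1.58 ± 0.46 (SE, n = 4 per group), or 2.98-fold, just missed the threshold (adjusted p = 0.157). It passed with dim probe sets left out (adjusted p = 0.142), and leaving out SIRT7 KO array 4 had the same effect (adjusted p = 0.149). The 250 bases before its transcript start (RefSeq, GRCm38.p6, chr6:5496279-5496528, minus strand), shown for comparison with Pex11a, also hold 0 copies of AGGTCA on either strand.
Pdk4: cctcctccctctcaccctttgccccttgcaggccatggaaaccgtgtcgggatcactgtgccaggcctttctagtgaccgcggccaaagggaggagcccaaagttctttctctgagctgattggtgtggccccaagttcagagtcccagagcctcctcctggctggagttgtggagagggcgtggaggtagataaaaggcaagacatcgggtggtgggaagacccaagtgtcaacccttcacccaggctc

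The cytochrome P450 genes of the 4a family, which hydroxylate the far end of fatty acids and are classical PPARα targets, varied widely. Of the 36 genes, Cyp4a14 had the largest SD among SIRT7 KO livers (2.38, against 1.10 in WT). It read 10.38, 9.50, 8.56 and 7.86 on WT arrays 1 to 4 and 12.82, 12.77, 8.11 and 9.46 on SIRT7 KO arrays 1 to 4. SIRT7 KO arrays 1 and 2 lay above every WT array, while arrays 3 and 4 lay within the WT range. The difference of 1.72 ± 1.05 (SE, n = 4 per group) did not pass (adjusted p = 0.509), with a 95% interval from -0.65 to 4.08. The probe set shared by Cyp4a10 and Cyp4a31 had the same order of arrays 1 and 2 over the rest, at 12.39 and 11.99, against 10.20 and 9.65 on arrays 3 and 4 and between 8.87 and 10.73 on the WT arrays. Its difference was 1.21 ± 0.62 (SE, adjusted p = 0.414), and it cannot be given to either gene.

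**Figure D3:**
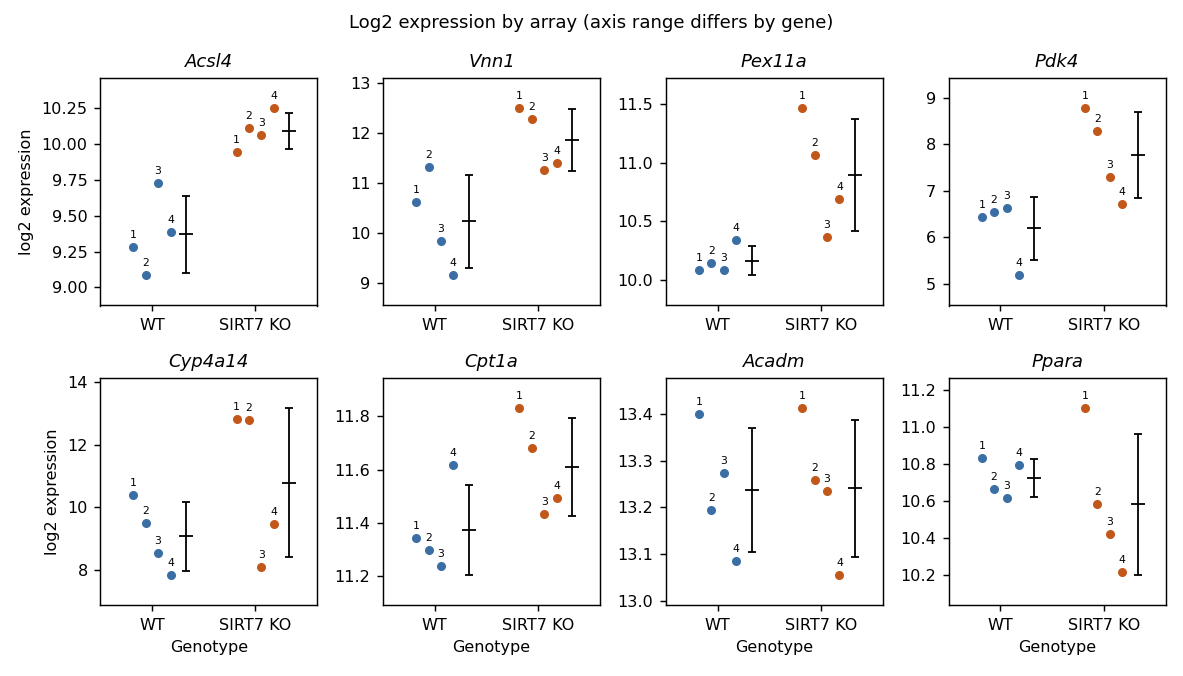
Log2 expression (vertical axes, range differs by gene) of 8 genes on the 4 WT (blue) and 4 SIRT7 KO (orange) arrays, numbered by array. Black lines are means ± SD. Acsl4 is higher on all 4 SIRT7 KO arrays, whereas Cyp4a14 lies at 12.82 and 12.77 on arrays 1 and 2 and at 8.11 and 9.46 on arrays 3 and 4.

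Of the carnitine shuttle, 0 of 4 genes were called (0 at an unadjusted p under 0.05), and all 4 had a positive difference. Cpt1a, the outer membrane transferase at which malonyl-CoA controls entry, read 11.34, 11.30, 11.24 and 11.62 on WT arrays 1 to 4 and 11.83, 11.68, 11.43 and 11.49 on SIRT7 KO arrays 1 to 4 by its brightest probe set. WT array 4 overlapped the SIRT7 KO arrays, and the difference of 0.24 ± 0.11 (SE, n = 4 per group) did not pass (adjusted p = 0.377). Its other probe sets gave larger differences, of 0.54 ± 0.14 (SE, adjusted p = 0.116), which passed, and 0.56 ± 0.17 (SE, adjusted p = 0.163). Both belong to the class in which some probes may also bind other transcripts. The probe set that passed read 10.424, 10.647, 10.478 and 10.628 on SIRT7 KO arrays 1 to 4 and at most 10.420 in WT. Averaged over its 3 probe sets, Cpt1a differed by 0.44 and was called (adjusted p = 0.143). Cpt2, the inner membrane partner of Cpt1a, differed by 0.11 ± 0.12 (SE, adjusted p = 0.73).

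Crat and Crot, which make short- and medium-chain acylcarnitines, differed by 0.58 ± 0.29 (SE, n = 4 per group, adjusted p = 0.408) and 0.22 ± 0.15 (SE, adjusted p = 0.57). Crat read 8.41 and 8.47 on SIRT7 KO arrays 1 and 2, 7.17 and 7.48 on arrays 3 and 4 and between 6.87 and 7.55 in WT. Crot ran against the usual spread, with an SD of 0.35 in WT and 0.053 in SIRT7 KO livers.

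The enzymes of the mitochondrial spiral and ETF had small differences. Of these 11 genes 0 were called (0 at an unadjusted p under 0.05), and their differences lay between -0.044 for the thiolase gene Acaa2 and 0.24 for Hadhb, with a median of 0.032. The widest 95% limits over the 11 genes were -0.27 and 0.51. The medium-chain dehydrogenase gene Acadm had a mean of 13.24 in both genotypes (SD 0.13 in WT and 0.15 in SIRT7 KO livers, n = 4 each), a difference of 0.0032 with a 95% interval from -0.21 to 0.22. The very-long-chain gene Acadvl (-0.028), the short-chain gene Acads (0.067) and the long-chain gene Acadl (0.10) lay close to it. Of the ETF genes, Etfa differed by 0.019, Etfb by 0.0093 and Etfdh, which passes the electrons on to ubiquinone, by 0.10. Hadha and Hadh, which carry out the middle steps of the spiral for long and short chains, differed by 0.032 and 0.053. The brightest probe set of Hadh is of the class in which some probes may also bind other transcripts. Its other probe sets gave -0.023 and, at a dim level, 0.099.

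Here too SIRT7 KO arrays 1 and 2 stood high for many of the genes, though not for all. Etfa read 12.87 and 12.83 on these arrays and 12.91 on WT array 1. Acadl read 12.15 and 11.99 on SIRT7 KO arrays 1 and 2, 11.57 and 11.47 on arrays 3 and 4 and between 11.59 and 11.76 in WT. Hadhb, the thiolase subunit of the trifunctional protein, read 12.32, 12.21, 11.88 and 11.78 on SIRT7 KO arrays 1 to 4 and between 11.78 and 11.82 in WT, a difference of 0.24 ± 0.12 (SE, n = 4 per group, adjusted p = 0.377). Its second probe set, of the less specific class, rose by 0.40 ± 0.099 (SE, adjusted p = 0.105). On that probe set all 4 SIRT7 KO arrays (11.26 to 11.66) lay above all 4 WT arrays (10.93 to 11.14), arrays 3 and 4 included.

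The auxiliary enzymes, which prepare unsaturated chains for the spiral, all had positive differences, and 0 of 4 were called (1, Decr2, at an unadjusted p under 0.05). Decr2, the peroxisomal dienoyl-CoA reductase, read 10.24, 9.99, 9.65 and 9.62 on WT arrays 1 to 4 and 10.95, 10.68, 9.91 and 10.09 on SIRT7 KO arrays 1 to 4. SIRT7 KO arrays 1 and 2 lay above all WT arrays and arrays 3 and 4 among them, and the difference was 0.53 ± 0.23 (SE, n = 4 per group, adjusted p = 0.328). Eci1, the mitochondrial enoyl-CoA isomerase, read 11.80, 11.57, 11.68 and 11.42 in WT and 12.39, 12.21, 11.68 and 11.64 in SIRT7 KO livers, a difference of 0.36 ± 0.17 (SE, adjusted p = 0.374). Decr1, the mitochondrial reductase, differed by 0.23 and Eci2 by 0.11.

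**Figure D4:**
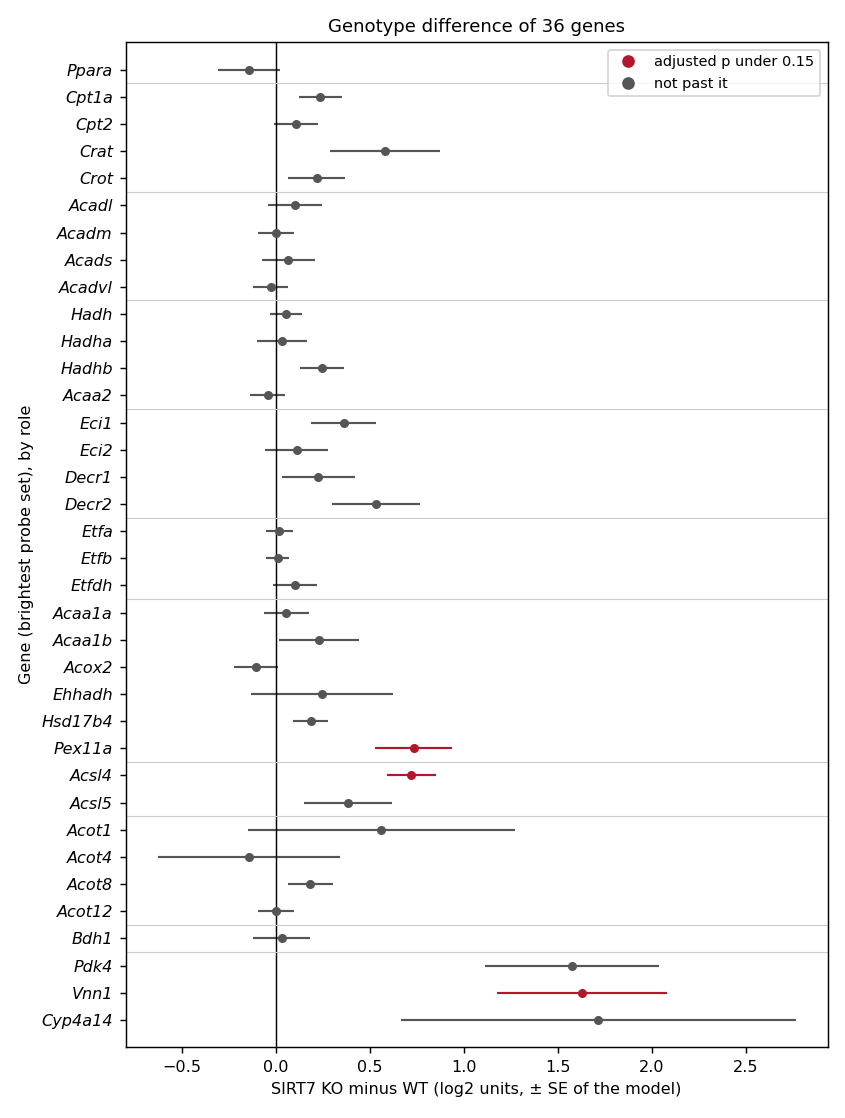
SIRT7 KO minus WT differences in log2 expression (horizontal axis) of the 36 genes (vertical axis, brightest probe set, grouped by role). Points are model estimates over 4 arrays per genotype, lines are ± SE and red marks an adjusted p under 0.15. Acsl4 lies at 0.72, Pex11a at 0.73 and Vnn1 at 1.63, while the enzymes of the mitochondrial spiral lie near 0.

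Of the 6 genes of peroxisomal oxidation, Pex11a alone was called. Hsd17b4, the D-bifunctional protein, differed by 0.19 ± 0.091 (SE, n = 4 per group, adjusted p = 0.389). A second probe set, of the less specific class, differed by 0.36 ± 0.13 (SE, adjusted p = 0.221). Ehhadh, the L-bifunctional protein and a PPARα target, read 12.21, 11.66, 12.32 and 11.01 in WT and 12.70, 12.63, 11.40 and 11.46 in SIRT7 KO livers. The WT range covered SIRT7 KO arrays 3 and 4, and the difference was 0.25 ± 0.38 (SE, adjusted p = 0.823). The thiolase genes Acaa1a and Acaa1b, close copies of each other whose shared probe sets were left out, differed by 0.056 and 0.23. The probe sets of Acaa1a are of the less specific class. Acox2, the branched-chain oxidase of bile acid side chains, differed by -0.11 ± 0.12 (SE, adjusted p = 0.74) and was the only one of these 6 genes with a negative difference.

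The thioesterases, which release free fatty acids from acyl-CoA, included the next largest SDs among SIRT7 KO livers, 1.64 for Acot1 and 1.15 for Acot4. Acot1, the cytosolic long-chain enzyme, read 8.45, 7.35, 7.46 and 6.91 on WT arrays 1 to 4 and 9.57, 9.44, 6.35 and 7.05 on SIRT7 KO arrays 1 to 4. Its highest and its lowest value were both from SIRT7 KO livers, and the difference was 0.56 ± 0.71 (SE, n = 4 per group, adjusted p = 0.779). Acot4, a peroxisomal enzyme, read 7.56, 6.85, 6.80 and 6.92 in WT and 7.98, 7.64, 5.47 and 6.45 in SIRT7 KO livers, and here too the SIRT7 KO arrays lay on both sides of WT (difference -0.15 ± 0.48 SE, adjusted p = 0.926). Without SIRT7 KO array 3 the difference of Acot4 was 0.33. Acot8 (0.18) and Acot12 (0.0017) moved less. Acot1 has close relatives, and its probe set shared with Acot2 showed the same order, at 9.71 and 9.29 on SIRT7 KO arrays 1 and 2 and 6.97 and 7.37 on arrays 3 and 4.

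Bdh1, the ketone body dehydrogenase and the list's single gene of that route, did not pass. It read 12.40, 12.29, 12.41 and 12.34 in WT and 12.73, 12.65, 12.14 and 12.03 in SIRT7 KO livers, so that SIRT7 KO arrays 1 and 2 lay above and arrays 3 and 4 below every WT array. The difference was 0.030 ± 0.15 (SE, n = 4 per group, adjusted p = 0.952).

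Of 15 genes with more than 1 probe set, 13 had the same sign in all of them, and Acaa2 and Hadh did not. A further probe set passed where the brightest did not for Cpt1a and Hadhb, while 1.92% of all probe sets were called higher. The dimmest probe sets of Acadl, Cpt2 and Hadh read at most 4.65, near the lower quartile of probe sets (4.56), where background limits any difference.

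**Figure D5:**
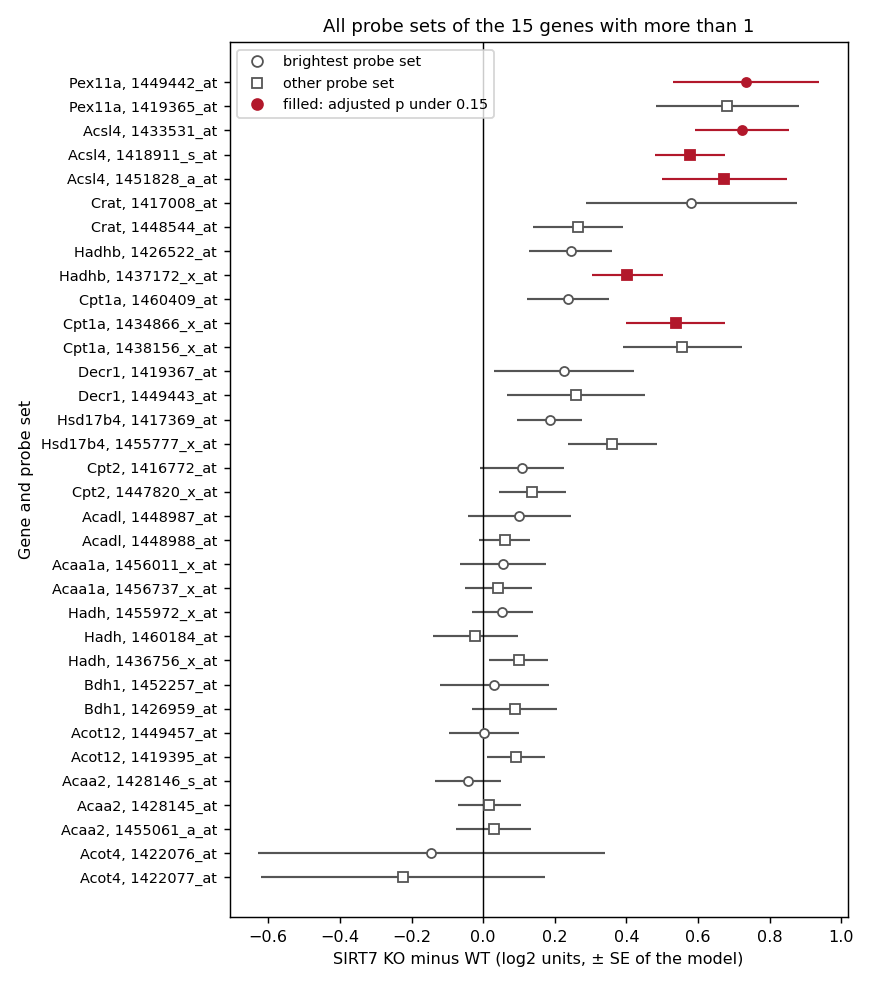
SIRT7 KO minus WT differences in log2 expression (horizontal axis, ± SE) for each probe set (vertical axis) of the 15 genes with more than 1. Circles are the brightest probe set, squares the others, and filled red symbols passed an adjusted p of 0.15. All 3 probe sets of Acsl4 passed, whereas for Cpt1a the brightest gave 0.24 and the others 0.54 and 0.56.

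Promoter windows of 300 bases, from 250 before to 50 after the transcript start, were available for 32 of the 39 listed genes. The paired motif, AGGTCA, any base and AGGTCA again, searched on both strands, was present in 0 of 32 and in 0.0481% of 27025 genes with a window. The looser form, with any base at the fourth place of the first copy (AGGNCA) and up to 1 other letter changed, which contains every match of the first, was found for 4 of 32 (12.5%), against 1.59% of all genes. The half-site AGGTCA was found for 5 of 32 (15.6%), against 18.1% of all genes. Every match of the paired motif holds it, as do the looser matches of Acot12 and Acot4, but not those of Acox2 and Etfa. The 4 looser matches are shown because they are the closest to the PPARα motif on this list. Capitals mark the fixed letters that matched, and lower case marks the free bases and the changed letter. They lie at chr13:91741411-91741423 for Acot12, chr12:84038366-84038378 for Acot4, chr14:8258818-8258830 for Acox2 and chr9:55512308-55512320 for Etfa (GRCm38.p6).
Acot12: AGGtgAgAGGTCA
Acot4: cGGcCAaAGGTCA
Acox2: AGGaCAgAGGTgA
Etfa: AGGgCAaAGGTaA
These 4 genes were not called, and their differences were 0.0017, -0.15, -0.11 and 0.019. A match describes letters in this window and says nothing of binding.

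Other genes of the pathway, listed by function, were compared in the same fit. Of 29 other oxidation and ketogenesis genes, 1 rose and 3 fell, where the shares of all genes were 2.17% and 2.48%. Without adjustment (p under 0.05), 1 was higher and 4 were lower (6.91% and 8.72% of all genes), and 15 of the 29 differences were positive (49.3% of all genes). Ech1, which isomerizes dienoyl-CoA, was higher by 0.48 ± 0.092 (SE, n = 4 per group, adjusted p = 0.0576). The medium-chain synthetase gene Acsm1 fell by 0.38 ± 0.081 (SE, adjusted p = 0.0729), the peroxisomal CoA hydrolase gene Nudt19 by 0.49 ± 0.12 (SE, adjusted p = 0.11) and the branched short-chain dehydrogenase gene Acadsb by 0.39 ± 0.11 (SE, adjusted p = 0.139). The median difference of this list was 0.0068. SIRT7 KO arrays 1 to 4 lay above all 4 WT arrays for 15, 10, 2 and 5 of the 29 genes. The shares of all genes were 21.0%, 21.2%, 24.0% and 18.2%. These arrays lay below all 4 WT arrays for 6, 6, 11 and 10 of the 29 (24.2%, 22.6%, 23.7% and 25.9% of all genes). The SD was larger in SIRT7 KO livers for 22 of the 29 (45.9% of all genes). Ech1 stayed called whichever array was dropped. Acsm1 lost its call without WT array 1 (0.187), WT array 2 (0.154) or SIRT7 KO array 4 (0.153), the value being the adjusted p. Nudt19 lost it without WT array 1 (0.255), 2 (0.205) or 3 (0.169) and without SIRT7 KO array 3 (0.192) or 4 (0.252). Acadsb kept it only without SIRT7 KO array 3 (0.106), and its adjusted p reached 0.30 without WT array 1. The probe set that stood for Acadsb is of the less specific class.

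Of 20 other PPARα targets, 3 rose and 0 fell, beside the same 2.17% and 2.48% of all genes. At an unadjusted p under 0.05, 7 were higher and 0 lower (6.91% and 8.72% of all genes). A positive difference was found for 19 of the 20 (49.3% of all genes), with a median of 0.30. Those that rose were Fitm1, which partitions triglyceride into droplets (0.94 ± 0.17 SE, n = 4 per group, adjusted p = 0.0495), Plin2, a droplet coat protein (0.76 ± 0.16 SE, adjusted p = 0.0705), and Mgll, which cleaves monoacylglycerol (0.50 ± 0.14 SE, adjusted p = 0.144). Other targets that act on stored fat did not pass, namely the lipase gene Pnpla2 (0.25, adjusted p = 0.334), the droplet protein gene Cidea (0.14, adjusted p = 0.579) and the lipase inhibitor gene G0s2 (0.11, adjusted p = 0.954). Fitm1 stayed called whichever array was dropped. Plin2 narrowly lost its call when WT array 1 was dropped, and likewise for SIRT7 KO array 2 (adjusted p = 0.156 each), and Mgll kept its call only without SIRT7 KO array 3 (adjusted p = 0.0719, and up to 0.30 without WT array 1). Cyp4a12a, a further cytochrome P450 gene, differed by 1.26 ± 0.41 (SE, adjusted p = 0.198). SIRT7 KO arrays 1 and 2 lay above all WT arrays for 15 and 12 of these 20 genes, against 21.0% and 21.2% of all genes. Arrays 3 and 4 did so for 6 and 8 of the 20, against 24.0% and 18.2% of all genes. Relative to the WT mean, the median of the 20 genes was 0.81, 0.49, 0.10 and 0.18 on SIRT7 KO arrays 1 to 4. Fgf21, a hormone gene under PPARα, read 9.08 and 8.88 on SIRT7 KO arrays 1 and 2, lower values on arrays 3 (6.996) and 4 (6.64) and between 6.05 and 8.59 in WT (adjusted p = 0.885).

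Of 20 regulators, partners and related receptors of PPARα, 1 rose, the related receptor gene Pparg, and 0 fell (2.17% and 2.48% of all genes). At an unadjusted p under 0.05, 1 was higher and 6 lower (6.91% and 8.72% of all genes). A positive difference was found for 7 of the 20 (49.3% of all genes), and the median difference was -0.089. Pparg, the receptor of fat storage, read 7.81, 7.84, 7.63 and 6.62 in WT and 9.00, 8.79, 7.80 and 8.93 in SIRT7 KO livers, with SIRT7 KO array 3 among the WT values. The rise of 1.16 ± 0.33 (SE, n = 4 per group, adjusted p = 0.145) passed only without SIRT7 KO array 3 (0.0851) when single arrays were dropped, and the adjusted p reached 0.299 without SIRT7 KO array 4. The kinase gene Stk11 (-0.21 ± 0.062 SE, adjusted p = 0.157), the partner receptor gene Rxra (-0.20 ± 0.073 SE, adjusted p = 0.25) and the transcription factor gene Foxo1 (-0.27 ± 0.10 SE, adjusted p = 0.263) did not pass. The coactivator gene Ppargc1a differed by -0.043 (adjusted p = 0.957).

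Markers of cell types were read in the same way. Of all genes, 2.17% were called higher and 2.48% lower, and at an unadjusted p under 0.05 the shares were 6.91% and 8.72%. At that unadjusted level, 0 pericentral markers were higher and 2 lower, 1 and 1 periportal, and 5 and 1 stellate. The counts were 1 and 1 for endothelial, 1 and 1 for adipose and 0 and 1 for T, B and NK cell markers. Of 8 pericentral hepatocyte markers 2 fell, Slc1a2 and Cyp1a2, and their mean level was 10.92 to 11.22 in WT and 10.78 to 10.96 in SIRT7 KO livers. Of 7 periportal markers 1 fell, Hal, while Cdh1 was higher by 0.63 ± 0.18 (SE) and just missed the threshold (adjusted p = 0.151). The mean level of the 7 was 11.95 to 12.14 in WT and 11.94 to 12.29 in SIRT7 KO livers. Of 11 macrophage markers 0 were called (0 at an unadjusted p under 0.05). A positive difference was found for all 11 (49.3% of all genes), with a median of 0.23. The mean of the 11 markers was 9.28 and 9.18 on SIRT7 KO arrays 1 and 2, 10.01 and 9.79 on arrays 3 and 4 and 8.91 to 9.93 in WT. Of 10 stellate cell markers 3 rose, Lum, Dcn and Acta2, with mean levels of 7.59 to 7.98 in WT and 8.04 to 8.42 in SIRT7 KO livers. The difference was positive for 9 of the 10 (49.3% of all genes). Of 10 endothelial markers 1 rose and 1 fell. Lyve1, a hyaluronan receptor of sinusoidal endothelium, was higher by 1.21 ± 0.21 (SE, adjusted p = 0.0463), with all 4 SIRT7 KO arrays (at least 8.21) above all 4 WT arrays (at most 7.71). Stab1, a scavenger receptor, fell by 0.30 ± 0.081 (SE, adjusted p = 0.132), and the mean of the 10 markers was 7.76 to 7.95 in WT and 7.80 to 7.998 in SIRT7 KO livers. Of 5 adipose markers Fabp4 rose, by 1.55, and the median difference of the 5 was -0.057. Car3 differed by -0.18 (adjusted p = 0.291) and Retn by 7.3e-05, and neither was called, while Adipoq and Lep read at most 3.72 and 3.79, under the lower quartile of probe sets. Car3 read between 14.18 and 14.59 over the 8 arrays, and whether adipose cells gave that signal was not tested. Of 9 markers of T, B and NK cells 1 fell, Cd3g, by 0.39 (adjusted p = 0.137), at a level of at most 4.93. Of 5 cholangiocyte and 3 erythroid markers 0 were called (0 and 1 at an unadjusted p under 0.05, the 1 being Alas2, which differed by -0.43). The part of these cell types in the differences of the oxidation genes was not tested.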

How the data were processed

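Expression was measured in the livers of 4 WT and 4 SIRT7 KO mice on Affymetrix mouse 430A arrays. The authors deposited log2 values, 1 for each probe set and array, after background correction, normalization between arrays and summarization. The paper's methods name RMA and the submitters' processing notes name GCRMA, with no version, and which of them made these values is unknown. The values were used as deposited.

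Of 22690 probe sets, 64 controls were left out and 22626 were tested. Genes were named from GEO's platform annotation, which can be old: 20380 probe sets had 1 symbol, 691 several and 1555 none. The Entrez IDs of all 36 measured members matched the mouse RefSeq table of GRCm38.p6. Genotypes were compared with limma 3.58.1 in R 4.3.3 (lmFit and eBayes, no covariate, two-sided), and p-values were adjusted over the 22626 probe sets by the Benjamini-Hochberg method. The script was tested on simulated data. The number of arrays limits the precision.

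The members and lists were chosen with earlier results of these data known. Named in full were the members called by any probe set, the 6 others with the smallest p, and up to 4 genes of each further pathway list. Ppara, Acadl, Acadm, Crat, Cyp4a14, Ehhadh, Acot1, Acot4, Bdh1, Fgf21 and Ppargc1a were described after their values were seen, as were other values outside this rule. The alternatives were a stricter threshold, trended and robust variance, array weights, a further quantile normalization, a filter on dim probe sets, the mean of a gene's probe sets, the replicate number as a block, and leaving out each array.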

Additional observations from a re-analysis of the deposited data

Results flagged for a closer look

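Among 72 sets of 4 arrays (36 genes in 2 genotypes), 4 held a single array far from the other 3 by Dixon's criterion, where chance flags about 1 in 20 sets. All 4 were WT. Pdk4 was low on WT array 4 (5.19, against 6.44 to 6.62 on the others), and without that array its difference was 1.24 in place of 1.58. Eci2 was low on WT array 3 (11.03, against 11.57 to 11.61), and Acot4 was high on WT array 1 (7.56, against 6.80 to 6.92). Hadhb was lowest on WT array 2 (11.78, against 11.81 to 11.82), where the other WT arrays were nearly equal.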

How the results depend on the processing

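The count of listed genes called lower was 0 under every alternative run, and Acsl4 was called under all of them. The count called higher was 3, and it was 1 at an adjusted p under 0.05, 1 with trended and robust variance and 3 or 4 under the other settings with all arrays. Leaving out a single array gave 1 to 2. The median difference of the list lay between 0.13 and 0.16 under the settings that kept all arrays and between 0.037 and 0.22 when SIRT7 KO array 1 or, for the highest value, array 3 was dropped. Among the other pathway genes 8 were called, 1 of them at an adjusted p under 0.05, 7 to 10 under the other settings with all arrays and 2 to 9 without a single array. Over all genes 576 were called, 94 at an adjusted p under 0.05 and 132 to 525 without a single array.

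Small differences changed sign. With array weights Acadm was at -0.035 and Acot12 at -0.026, and with the mean of a gene's probe sets Acaa2 was at 0.00048 and Stk11 at 0.012. Without a single array, the difference ranged for Acadl from -0.017 to 0.21, for Acadm from -0.054 to 0.065, for Acads from -0.014 to 0.17, for Acadvl from -0.085 to 0.028, for Hadha from -0.080 to 0.12, for Acaa2 from -0.10 to 0.012, for Eci2 from -0.026 to 0.21, for Etfa from -0.0072 to 0.062, for Etfb from -0.018 to 0.037, for Acaa1a from -0.025 to 0.15, for Ehhadh from -0.017 to 0.46, for Acot4 from -0.51 to 0.33, for Acot12 from -0.078 to 0.048 and for Bdh1 from -0.082 to 0.15. The cause was not tested.

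The replicate numbers of the labels did not pair the arrays, since the same-numbered WT and SIRT7 KO arrays had correlations of 0.26, -0.25, -0.16 and 0.15 in their deviations from the group means. With the number as a replicate block, 4 listed genes were called higher (Acsl4, Vnn1, Pdk4 and Decr2) and 0 lower, the median difference was 0.15, 7 other pathway genes were called and 368 of all genes were called. Pex11a (adjusted p = 0.18), Mgll (0.199), Pparg (0.187) and Acadsb (0.247) were not called in that fit, and Aldh3a2 and Txnip were added. Probe sets near the lower quartile of signal can show little difference above background.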
